A study of Homo sapiens with 6 samples.

Results

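Daoy, an established human medulloblastoma cell line, was profiled here for 7 genes of the Hedgehog pathway, PTCH1, HHIP, SMO, SUFU, GLI1, GLI2 and GLI3. They are its receptor, its signal transducer, its main inhibitors and its transcription factors. Every probe set that the platform annotation names to one of these symbols alone was taken, which gave 21 probe sets of 7 genes, out of 19775 genes with a probe set of their own. Cells were exposed to 1 µM thapsigargin (Tg) for 3 h, to 1 µM Tg for 8 h, or left untreated, with 2 arrays per group and 6 in all. Tg blocks the calcium pump of the endoplasmic reticulum (ER) and thereby sets off the unfolded protein response, the cell's answer to misfolded protein in the ER. No vehicle is named for the untreated cells, both Tg times are set against the same 2 untreated arrays, and all arrays come from this single line in culture.

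Hedgehog signalling is switched on when a secreted ligand binds Patched (PTCH1). Unbound Patched holds down the membrane protein Smoothened (SMO), and HHIP is a second ligand-binding protein that keeps ligand away from Patched. Released SMO acts in the primary cilium to free the GLI transcription factors from SUFU, a cytoplasmic protein that tethers them. GLI2 is mainly an activator, GLI3 is mainly processed to a repressor, and GLI1 is an activator and itself a target. PTCH1, HHIP and GLI1 are the usual transcriptional readouts of an active pathway. The pathway drives expansion of granule cell precursors in the developing cerebellum, and one molecular class of medulloblastoma is defined by its activation.

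PTCH1 carries a match to the letters that GLI proteins prefer, and the stretch is shown because PTCH1 is both the receptor and a readout of the pathway. RefSeq promoter windows of GRCh38.p14 (250 bases before to 50 after an annotated start) were available for 5 of the 7 genes, namely PTCH1, HHIP, SMO, SUFU and GLI2, in 10 windows. GACCACCCA, read on both strands, was found in 1 of the 10 windows, before one of 5 annotated PTCH1 starts, at chr9:95509370-95509498 on the minus strand. Capitals mark the match, which reads TGGGTGGTC on the gene's strand and begins 172 bases before that start:
PTCH1: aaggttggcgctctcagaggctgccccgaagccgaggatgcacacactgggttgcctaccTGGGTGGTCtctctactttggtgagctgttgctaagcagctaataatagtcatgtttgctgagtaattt
The same letters were present in 83 of 35116 windows (0.236%). The ER stress response element, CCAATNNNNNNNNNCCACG on either strand, with no overlap with the GLI motif, was in 27 windows (0.0769%) and in none of the 10 windows of these genes. These matches describe letters only, and no binding was measured.

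The deposited values are MAS5 signals, normalized intensities on a linear scale. Testing required a signal of 100 or more on 2 or more of the 6 arrays, and any other probe set was called near background. Of the 21 probe sets, 10 were tested (47.6%, against 50.5% of all 54675 probe sets) and 11 were near background. As a guide to background on the same arrays, 130 probe sets of 102 olfactory and taste receptor genes had median signals of 13.1 to 26.0 per array and 95th percentiles of 76.7 to 134, and 8 of them (6.2%) passed the same filter. Each gene's probe sets bind different stretches of its transcripts, so the members' levels are compared between arrays for one probe set, and not between probe sets.

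**Figure D1:**
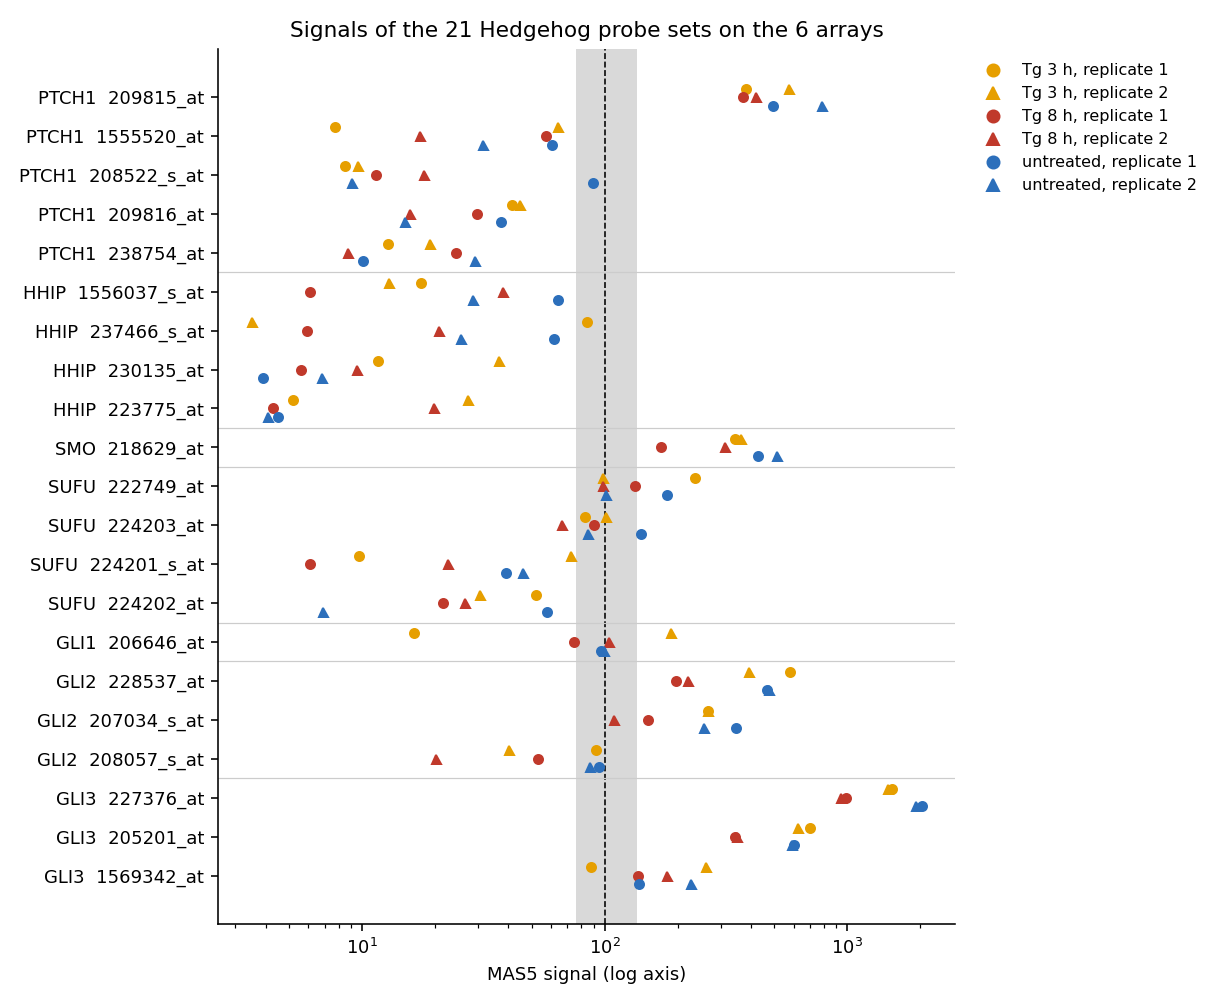
MAS5 signal (log axis) of each of the 21 probe sets on the 6 arrays, with colour for the group and shape for the replicate number. The dashed line is a signal of 100 and the grey band spans the 95th percentile of receptor probe sets on the 6 arrays (76.7 to 134). GLI3, GLI2, SMO and PTCH1 each have a probe set to the right of the band on every array, all 4 HHIP probe sets stay at signals under 100, and GLI1 has 4 of its 6 points in the band or at its lower edge.

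PTCH1, SMO, GLI2 and GLI3 were each detected by at least 1 probe set with a signal of at least 100 on all 6 arrays, 6 probe sets in all. SUFU was dim, with 2 of 4 probe sets tested and none at 100 or more on all arrays. GLI1 was at the limit of detection on its only probe set, which reached 100 on 2 of 6 arrays. HHIP was near background on all 4 of its probe sets, and was the only member with none tested.

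At 8 h of Tg, all 10 tested probe sets had a log2 fold change below 0, with a median of -0.72, against a median of -0.09 over all 27616 tested probe sets, of which 59.1% were below 0. Both Tg 8 h arrays lay below both untreated arrays for 6 of the 10 (PTCH1, SMO, both tested GLI2 probe sets, and GLI3 227376_at and 205201_at), while 24.5% of all tested probe sets did so. In the limma fit across all probe sets, which pools the 6 arrays, 0 of the 10 passed an adjusted p of 0.05 at 8 h, where 0.145% of all probe sets passed as lower and 0.514% as higher. At an unadjusted p under 0.05 the count was 5 of 10, against 9.97% of all tested probe sets. The local pooled error test, as rebuilt here, gave 0 adjusted and 4 of 10 unadjusted, against 5.06% of all. Replicate numbers are shared between groups, and arrays of the same number deviated together. With the replicate number as a block, 4 of the 10 passed as lower (2 probe sets each of GLI2 and GLI3), where 2.80% of all tested probe sets passed as lower, and 0 passed as higher.

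At 3 h, 7 of the 10 had a log2 fold change below 0, with a median of -0.24, against -0.02 over all tested probe sets, of which 52.1% were below 0. None passed the limma test, with or without the block (0 of 10 each, while 0.0543% of all probe sets passed without the block and 0.992% with it). Counted at an unadjusted p under 0.05, limma had 0 of 10 at 3 h (4.08% of all tested probe sets), or 1 of 10 once the block was added (11.6% of all), and the local pooled error test had 0 (1.65% of all). Both Tg 3 h arrays lay below both untreated arrays for 2 of the 10, SMO and a GLI3 probe set. Both lay above for 1 of the 10, another GLI3 probe set. Over all tested probe sets, 15.9% lay below in this way and 14.0% above. Set directly against Tg 3 h, the Tg 8 h arrays lay below for 5 of the 10, and 20.9% of all tested probe sets did so. In that comparison limma passed 0 of 10 without the block (4 unadjusted, against 6.53% of all) and 2 with it, GLI2 228537_at and GLI3 205201_at, both lower at 8 h, where 1.18% of all tested probe sets passed as lower. The local pooled error test passed 0 there, or 1 unadjusted, against 3.07% of all.

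PTCH1, the receptor that holds SMO down, was read by 5 probe sets. 209815_at had signals of 382.9 and 575.1 at 3 h of Tg, 372.7 and 419.8 at 8 h of Tg, and 493.2 and 786.9 in untreated cells. Both Tg 8 h arrays lay below both untreated arrays, and the Tg 3 h arrays overlapped with the untreated ones. Its log2 fold change was -0.66 ± 0.32 (SE) at 8 h, with an adjusted p of 0.564 by limma and 0.114 with the block, and -0.41 ± 0.32 at 3 h, with an adjusted p of 1.0. Its 95% interval at 8 h, from the fit without the block, ran from -1.40 to 0.09. With the block the SE at 8 h was 0.21. The other 4 probe sets (209816_at, 1555520_at, 238754_at and 208522_s_at) were near background, with signals between 7.7 and 89.1 over the 6 arrays. The highest of these, 89.1, was 208522_s_at on untreated replicate 1, whose partner array gave 9.1.

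HHIP, the ligand-binding inhibitor, gave no level clear of background. 1556037_s_at had signals of 17.5 and 12.9 at 3 h of Tg, 6.1 and 37.9 at 8 h of Tg, and 64.3 and 28.7 in untreated cells. 237466_s_at had 84.3 and 3.5 at 3 h of Tg, 5.9 and 20.7 at 8 h of Tg, and 62.0 and 25.5 in untreated cells. Among the 130 receptor probe sets of the same array, 1556037_s_at ranked between the 20.8 and 80.8 percentile. For 1556037_s_at the Tg 3 h arrays lay below the untreated ones and the Tg 8 h arrays overlapped with them, and for 237466_s_at this was the other way round. No HHIP probe set was tested, and no fold is given at these signals. 230135_at and 223775_at stayed at or below 36.7 on every array, with both Tg 3 h arrays above both untreated arrays.

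SMO, the transducer that Patched restrains, had 1 probe set, 218629_at. Its signals were 345.5 and 365.9 at 3 h of Tg, 170.1 and 313.0 at 8 h of Tg, and 427.5 and 511.3 in untreated cells. Both arrays of either Tg time lay below both untreated arrays, and the 8 h arrays differed from each other by more than the 3 h arrays did. The log2 fold change at 8 h was -1.02 ± 0.35 (SE), a fold of 0.494, with an adjusted p of 0.348 by limma and 0.0553 with the block. Taken within replicate numbers it was -1.33 for replicate 1 and -0.71 for replicate 2. At 3 h it was -0.39 ± 0.35, with an adjusted p of 1.0 by limma.

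SUFU, which holds GLI proteins in the cytoplasm, was read at low signal. 222749_at gave 235 and 98.0 at 3 h of Tg, 133.1 and 98.0 at 8 h of Tg, and 179.6 and 101.6 in untreated cells. Replicate 1 was above replicate 2 in all 3 groups, and the groups overlapped. Fitted log2 fold changes were -0.24 ± 0.59 (SE) at 8 h and 0.17 ± 0.59 at 3 h, and its 95% interval at 8 h, from -1.60 to 1.11, leaves room for a change of either sign. 224203_at gave 83.0 and 101.1 at 3 h of Tg, 89.9 and 66.7 at 8 h of Tg, and 140.7 and 85.2 in untreated cells, with a log2 fold change of -0.50 ± 0.62 at 8 h. 224201_s_at and 224202_at were near background.

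GLI1, the activator that is also the most used readout of the pathway, had 1 probe set, 206646_at. Its signals were 16.3 and 187.4 at 3 h of Tg, 74.8 and 104.3 at 8 h of Tg, and 96.5 and 99.0 in untreated cells. Among receptor probe sets of the same array these signals ranked at the 41.5 percentile for 16.3 and above all 130 for 187.4. It passed the filter through 1 array at each Tg time and through no untreated array. The Tg 3 h arrays lay on opposite sides of the untreated ones, with log2 fold changes of -2.57 for replicate 1 and 0.92 for replicate 2. The fitted change of -0.82 ± 1.11 (SE) at 3 h turns positive, to 0.45, where signals under 100 are raised to 100. At 8 h it was -0.15 ± 1.11, with a 95% interval from -2.72 to 2.43, so that neither a fall nor a rise could be read from this probe set at this depth of signal.

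GLI2, the main activator, was read by 3 probe sets, and 2 were tested. 228537_at had signals of 578.8 and 393.7 at 3 h of Tg, 196.0 and 219.2 at 8 h of Tg, and 466.9 and 475.1 in untreated cells. The Tg 8 h arrays lay below all 4 others, and the Tg 3 h arrays fell on either side of the untreated ones. The log2 fold change at 8 h was -1.18 ± 0.29 (SE), a fold of 0.440, with an adjusted p of 0.169 by limma and 0.0248 with the block. It was -1.25 for replicate 1 and -1.12 for replicate 2. At 3 h it was 0.02 ± 0.29, and 8 h minus 3 h was -1.20 ± 0.29, with an adjusted p of 0.410 by limma and 0.0443 with the block.

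The second GLI2 probe set, 207034_s_at, gave 266.5 and 266.4 at 3 h of Tg, 150.0 and 109.5 at 8 h of Tg, and 348.4 and 257.0 in untreated cells. The 8 h arrays were again the lowest of the 6, and the 3 h arrays lay between the untreated ones. At 8 h the log2 fold change was -1.22 ± 0.35 (SE), with an adjusted p of 0.254 by limma and 0.0470 with the block. Both probe sets read the same gene on the same arrays, and are not independent evidence. 208057_s_at, near background, had 91.9 and 40.4 at 3 h of Tg, 52.9 and 20.2 at 8 h of Tg, and 94.5 and 86.8 in untreated cells.

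GLI3, processed mainly to a repressor, was clear of background on 227376_at and 205201_at. 227376_at had signals of 1525.3 and 1467.7 at 3 h of Tg, 982.3 and 939.3 at 8 h of Tg, and 2021.4 and 1913.3 in untreated cells. The groups did not overlap, with 8 h lowest, 3 h between and untreated highest. At 8 h its log2 fold change was -1.03 ± 0.19 (SE), a fold of 0.488, with an adjusted p of 0.0701 by limma and 0.00249 with the block. It was -1.04 for replicate 1 and -1.03 for replicate 2. At 3 h it was -0.39 ± 0.19, with an adjusted p of 1.0 by limma and 0.321 with the block.

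GLI3 205201_at had signals of 699.3 and 627.7 at 3 h of Tg, 342.8 and 351.7 at 8 h of Tg, and 599.8 and 589.9 in untreated cells. The 8 h arrays lay below the untreated ones and the 3 h arrays above them, so that both GLI3 probe sets were lower at 8 h and stood on opposite sides of untreated at 3 h. The log2 fold change was -0.78 ± 0.23 (SE) at 8 h, with an adjusted p of 0.259 by limma and 0.0456 with the block, and 0.16 ± 0.23 at 3 h. 8 h minus 3 h was -0.93 ± 0.23, with an adjusted p of 0.419 by limma and 0.0404 with the block. The third probe set, 1569342_at, did not follow, with 87.3 and 262.2 at 3 h of Tg, 137.2 and 179.6 at 8 h of Tg, and 138.6 and 226.0 in untreated cells. Its log2 fold change at 8 h was -0.17 ± 0.59, and its interval, from -1.53 to 1.18, includes the values of the other 2.

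**Figure D2:**
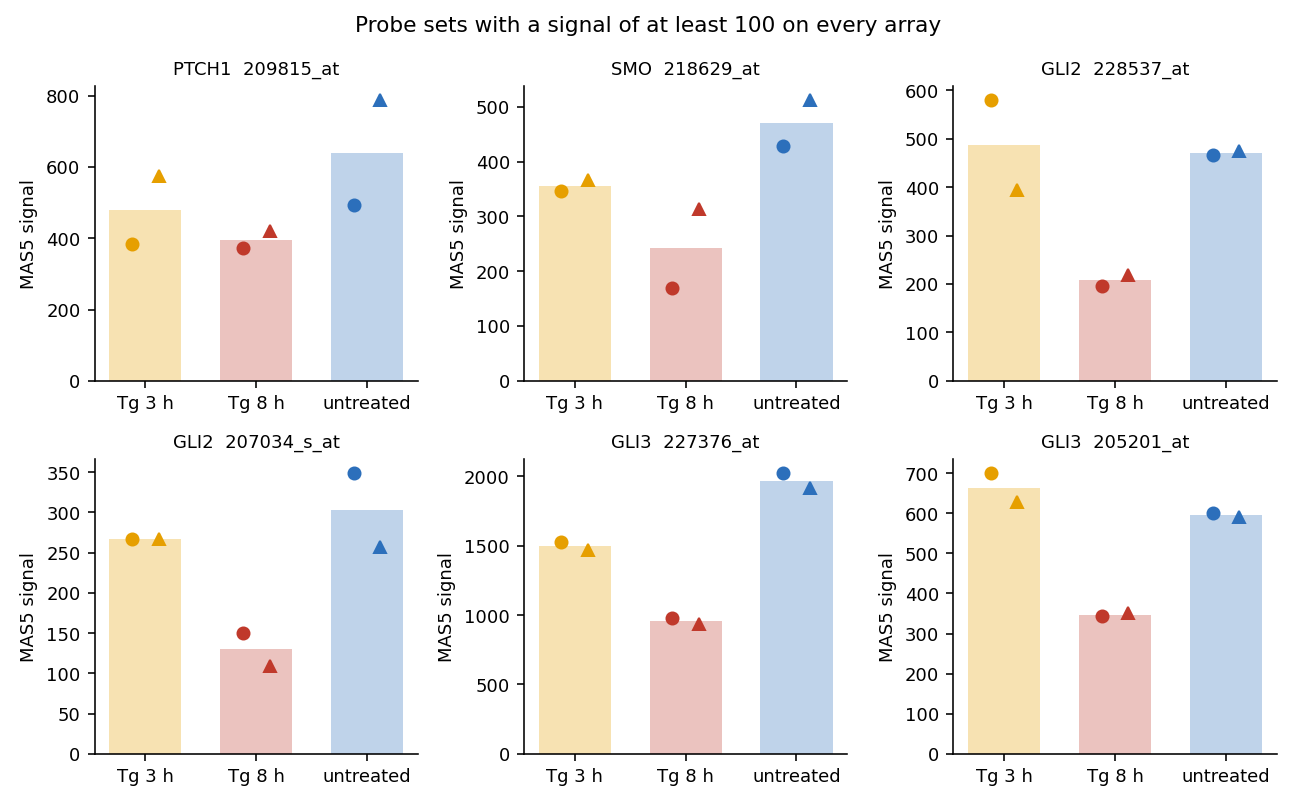
MAS5 signal (linear axis) of the 6 probe sets with at least 100 on every array. Bars are the mean of 2 arrays and points are the arrays (circle, replicate 1; triangle, replicate 2). The red Tg 8 h points lie below the blue untreated points in all 6 panels, and the Tg 3 h points lie above them only for GLI3 205201_at.

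SMO, GLI2 and GLI3, on the probe sets that stand for them, had folds of Tg 8 h over untreated of 0.494, 0.440 and 0.488, and their 95% intervals on the log2 scale, -1.82 to -0.22, -1.86 to -0.51 and -1.47 to -0.59, overlap over most of their length. Differences between genes were not tested. In mean signal, GLI3 227376_at had 961 ± 30.4 at 8 h of Tg and 1970 ± 76.4 in untreated cells, and GLI2 228537_at had 208 ± 16.4 at 8 h of Tg and 471 ± 5.80 in untreated cells (SD, n = 2 each). SMO had 242 ± 101 at 8 h of Tg and 469 ± 59.3 in untreated cells, and PTCH1 had 396 ± 33.3 at 8 h of Tg and 640 ± 208 in untreated cells.

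**Figure D3:**
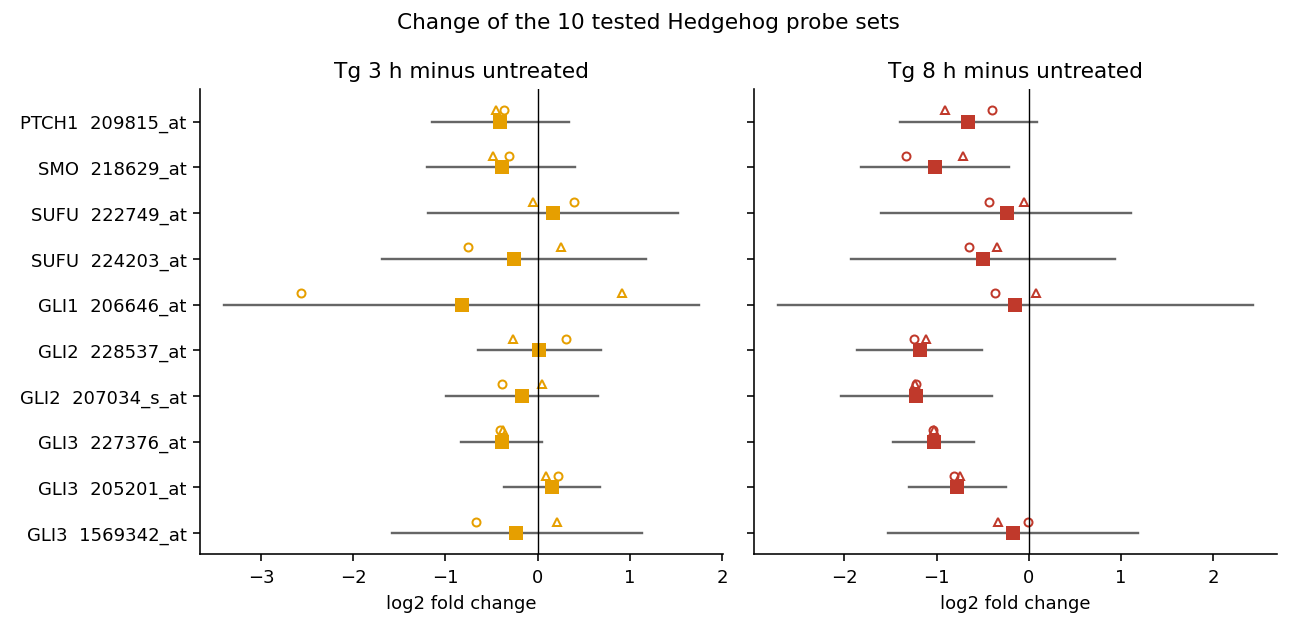
Log2 fold change of the 10 tested probe sets at 3 h (left) and 8 h (right) of Tg over untreated. Squares are limma estimates without the block, lines their 95% intervals, and open symbols the difference within each replicate number. At 8 h every square is below 0 and the intervals of both GLI2 probe sets, of GLI3 227376_at and 205201_at, and of SMO do not reach 0, while at 3 h all 10 intervals include 0.

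The rest of the pathway was read from 5 lists by role, each gene on its brightest probe set. Of 103 other genes, 97 could be read from a probe set named to them alone, 86 were tested and 11 were near background. Over all 19775 genes, 64.9% were tested. At 8 h the median log2 fold change of the 86 was -0.10, against -0.84 for the 6 tested members and -0.09 over all 12839 tested genes. At 8 h, 1 of the 86 passed the limma test as higher, TULP3, where 0.646% of all genes did. An unadjusted p under 0.05 by limma was reached by 7 of the 86, against 9.97% of all tested probe sets. With the block, 2 passed as higher and 2 as lower, where 4.76% and 3.79% of all genes did. At 3 h, limma passed 0 of 86 without the block and 2 with it, where 1.25% of all genes passed. Unadjusted, limma without the block had 4 of 86, against 4.08% of all tested probe sets. After adjustment, the local pooled error test passed 0 of 86 at 3 h and 1 of 86 at 8 h. Over all 27616 tested probe sets it called 58 and 298.

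The ligands were dim or undetected. Sonic hedgehog, SHH, gave 113.8 and 102.5 at 3 h of Tg, 119.2 and 110.1 at 8 h of Tg, and 114.8 and 48.4 in untreated cells, values at the upper edge of the receptor background, and a log2 fold change of 0.62 ± 0.64 (SE) at 8 h. IHH and DHH, the Indian and desert hedgehog ligands, were near background. HHAT, which attaches palmitate to the ligand, and DISP1, which releases it from the producing cell, were detected, with log2 fold changes at 8 h of -0.17 and 0.32. None of the 4 tested genes of this list passed at either time, with or without the block.

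Of 4 tested co-receptors and other ligand-binding surface proteins, none passed limma without the block at either time, and GAS1 passed as lower at 8 h with it. GAS1 gave 1231.1 and 312.5 at 3 h of Tg, 110.6 and 3.2 at 8 h of Tg, and 302.2 and 151.3 in untreated cells. The 8 h arrays were the lowest of the 6 and the 3 h arrays the highest. Its log2 fold change at 8 h was -3.51 ± 1.46 (SE), with an adjusted p of 0.483 by limma and 0.0345 with the block, and the size rests on the signal of 3.2 in replicate 2, since replicate 1 alone gave -1.45. BOC, a related membrane protein, had 130.3 and 96.2 at 8 h of Tg and 270.6 and 205.0 in untreated cells, with a log2 fold change of -1.07 ± 0.48 and an adjusted p of 0.521 (0.121 with the block). CDON, a protein related to BOC, was at 0.04 at 8 h and 0.60 at 3 h, and GPC3, a glypican, was at -0.35 ± 0.67 at 8 h.

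Of 29 tested genes that act between SMO and GLI, none passed at 8 h, and their median log2 fold change was -0.08. ARRB1, a beta-arrestin, had the lowest, -0.88 ± 0.37 (SE), followed by GPR161, a ciliary receptor that keeps the pathway off, at -0.75 ± 0.34, with adjusted p of 0.484 and 0.528 by limma. At 3 h CUL3, the scaffold of a ubiquitin ligase that acts on GLI proteins, gave 3535.2 and 4687.1 in Tg cells, against 7570.0 and 6771.0 in untreated cells. Its log2 fold change of -0.81 ± 0.22 had an adjusted p of 0.681 by limma and 0.0488 with the block. KIF7, a ciliary kinesin that organises GLI proteins at the cilium tip, had 130.4 and 31.8 at 3 h of Tg and 137.4 and 211.1 in untreated cells, with a log2 fold change of -1.40 ± 0.75 and no call.

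Of 31 tested genes of the primary cilium, TULP3 rose. TULP3 brings receptors such as GPR161 into the cilium, and its loss in mice increases Hedgehog signalling. Its signals were 2165.8 and 2477.6 at 3 h of Tg, 5195.2 and 4893.2 at 8 h of Tg, and 1262.5 and 1479.4 in untreated cells. The 3 groups did not overlap. Its log2 fold change was 1.88 ± 0.20 (SE) at 8 h, with an adjusted p of 0.0122 by limma and 9.43e-05 with the block, and 0.76 ± 0.20 at 3 h, with an adjusted p of 0.604 and 0.0357 with the block. The call without the block at 8 h was lost when either Tg 8 h array or untreated replicate 1 was left out, under median centring and without the intensity trend, while the rise within replicate numbers was 2.04 and 1.73. The other 30 had a log2 fold change that did not pass. TMEM67, of the ciliary transition zone, had 0.72 ± 0.40 at 3 h and 1.11 ± 0.40 at 8 h. DYNC2I1 had the largest change of these at 8 h, -1.94 ± 1.33, with signals of 10.8 and 244.2 against 156.6 and 248.5 in untreated cells.

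Of 22 reported GLI target genes with a probe set, not counting the members, 18 were tested and 4 were near background, MYCN among them. Their median log2 fold change at 8 h was -0.33, against -0.09 over all tested genes. Of the 18, 13 were below 0, where 59.1% of all tested probe sets were. None passed the limma test without the block. With it, CCNE1 (cyclin E1, which drives entry into S phase) passed as lower and SPP1 (osteopontin, a secreted matrix protein) as higher. CCNE1 had 280.7 and 210.2 at 8 h of Tg, against 618.8 and 554.2 in untreated cells, a log2 fold change of -1.27 ± 0.29 (SE) with an adjusted p of 0.134 by limma and 0.00861 with the block. SPP1 had 1759.1 and 4833.2 at 8 h of Tg, against 768.8 and 2008.8 in untreated cells, a log2 fold change of 1.23 ± 0.58 with an adjusted p of 0.539 by limma and 0.00301 with the block. The largest changes of the list at 8 h were on dim probe sets, SNAI1 at -1.92 ± 1.14 and BMP4 at -1.80 ± 0.78, neither of which passed. At 3 h they were SNAI1 at -0.77 ± 1.14 and FOXF1, a forkhead transcription factor, at 0.72 ± 0.25, with no call. CCNE1 and SPP1 were named after their values were seen, because the block decided their call. The block also decided the calls of GAS1 and CUL3, which were already named for the size of their changes.

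**Figure D4:**
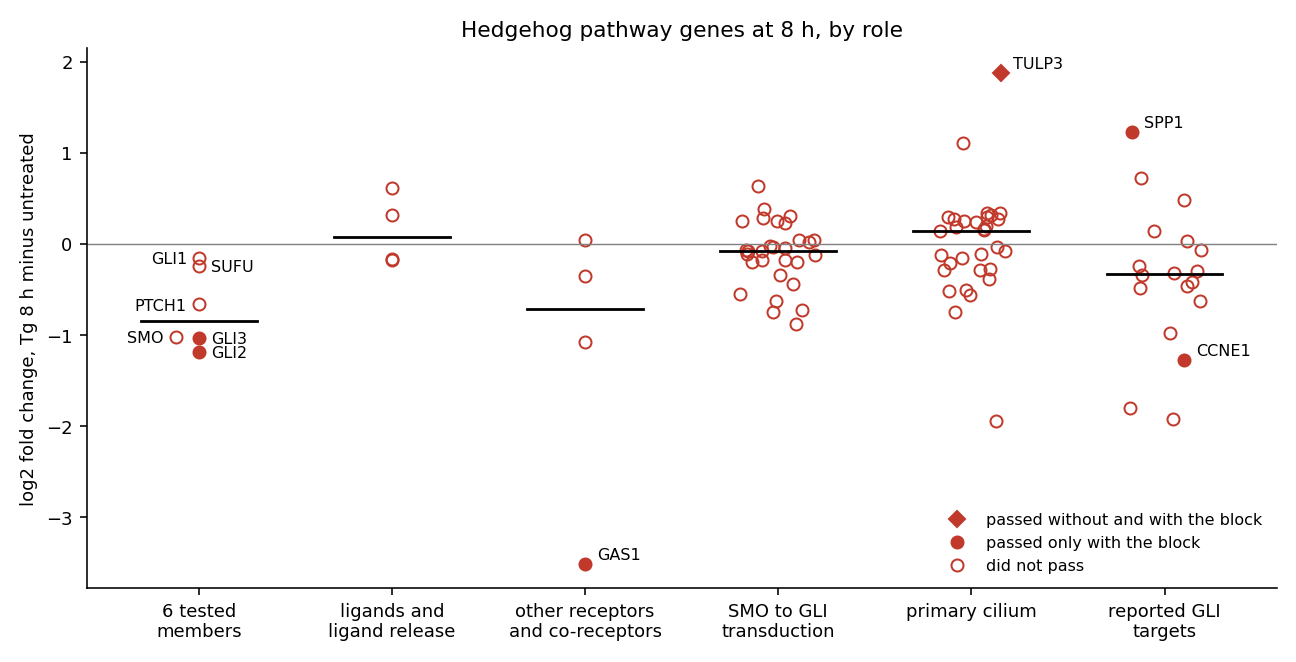
Log2 fold change at 8 h of Tg over untreated for each tested gene on its brightest probe set, by role, with the median of each list as a black line. Filled diamonds passed the limma test without and with the block, filled circles only with it, open circles neither. TULP3 is the highest at 1.88, GAS1 the lowest at -3.51, and the median of the 6 tested members is -0.84.

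Properties of the arrays and of the cells were read beside these values. Median signals of the 6 arrays were 69.7 to 103. Spiked-in hybridization controls had geometric means of 7762 to 11671 in replicate 1 of each group against 2718 to 2840 in replicate 2. ACTB and GAPDH were each read at the 3' and at the 5' end as a sign of RNA length. ACTB gave quotients of 4.47 and 2.75 at 3 h of Tg, 3.49 and 3.25 at 8 h of Tg, and 2.97 and 2.86 in untreated cells. For ACTB both Tg 8 h arrays lay above both untreated ones, while for 6 of the 10 tested member probe sets they lay below. GAPDH gave quotients of 1.24 and 1.19 at 3 h of Tg, 1.19 and 1.24 at 8 h of Tg, and 1.13 and 1.22 in untreated cells, and the groups overlapped. Of 18 genes of granule precursors and medulloblastoma, 11 were tested, ZIC1, ZIC2 and SFRP1 among them, and 7 were near background, ATOH1, BARHL1 and CNTN2 among them. Their summed signal was 9500 to 10800 at 3 h of Tg, 8630 to 8770 at 8 h of Tg and 10500 on both untreated arrays. Such a sum rests mostly on the brightest probe sets. ZIC1 had 1967.1 and 2033.9 at 8 h of Tg against 3427.2 and 2629.3 in untreated cells. ZIC2 had 2011.1 and 1924.0 against 1954.3 and 1986.5. None of the 11 tested genes passed at 8 h, with or without the block. TUBB3, NEFL and SYT1 of the neuronal list, VIM, COL1A1 and COL3A1 of the fibroblast list and TIE1 of the endothelial list had signals of at least 100 on all arrays. SYP, RBFOX3, GFAP, PTPRC, and PDGFRA and PDGFRB of the fibroblast list were near background, as were 9 of 10 immune cell genes. Of 8 endothelial genes, 4 were tested and 4 (CDH5, VWF, CLDN5 and ESAM) were near background. Of this list, TIE1 alone had at least 100 on all arrays. Of 11 astrocyte and oligodendrocyte genes, 4 were tested and 7 were near background. OLIG2 had 397.7 and 481.0 at 8 h of Tg against 74.9 and 184.5 in untreated cells (log2 fold change 1.90, adjusted p 0.206 by limma and 0.00911 with the block). OLIG1 went the other way, with 98.1 and 186.8 against 401.6 and 345.5 (log2 fold change -1.46, adjusted p 0.211 by limma and 0.0414 with the block). The neuronal list had a median log2 fold change of 0.00 at 8 h, with 3 of 7 tested genes below 0. NEFL fell at 8 h, with 1516.5 and 1975.2 in Tg cells against 4288.6 and 4810.4 in untreated cells (log2 fold change -1.39, adjusted p 0.0419 by limma). SYT1 had 994.2 and 1196.3 in Tg cells at 8 h against 364.3 and 674.3 in untreated cells (log2 fold change 1.14, adjusted p 0.265 by limma and 0.00901 with the block). The fibroblast list had a median log2 fold change of -0.30 at 8 h, against -0.09 over all tested genes. Of its 11 tested genes, 8 were below 0, where 59.1% of all tested probe sets were. By limma, 0 passed without the block and 2 passed as lower with it, where 3.79% of all genes did. The part of RNA quality and of these markers in the Hedgehog values was not tested, and fewer cells of a type and less RNA per cell cannot be told apart in bulk RNA.

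For the 4 members detected on all arrays, the genes with the most similar profile were listed as a description, by Pearson r over the 6 arrays after centring within each replicate number. For PTCH1 they were NCR2, SP8 and ESX1 (r of 0.996 to 0.997), and for SMO they were AGPAT2, TUBGCP4 and LDHA (r of 0.998 to 1.000). For GLI2 they were DNAJC8, SULF2 and ZNF101 (r of 0.998 to 1.000), and for GLI3 they were MEST, SLC25A1 and HMGA2 (r of 0.999 each). With 6 arrays in 3 groups, many other genes had high values too. Of 12839 tested genes, 164 for PTCH1, 360 for SMO, 428 for GLI2 and 500 for GLI3 reached 0.95. GLI3's nearest, MEST, had 11905.4 and 11764.3 at 3 h of Tg, 9081.7 and 8749.8 at 8 h of Tg, and 14104.6 and 13767.2 in untreated cells, the same order of groups at a smaller step of -0.64 at 8 h.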

How the data were processed

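Daoy cells were profiled on Affymetrix HG-U133 Plus 2.0 arrays, 2 per group. The values the authors deposited are MAS5 signal intensities on a linear scale, scaled so that the mean signal after trimming 2% at each end is 500 on every array; here they were put on the log2 scale. Their genome build is not given in the sources used here, and gene names came from GEO's platform table (41097 probe sets with 1 symbol, 1801 with several, 11777 with none). Groups and replicate numbers came from the labels, and the paper describes independent experiments. With 2 arrays per group, p-values measure only the spread between these samples.

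limma 3.58.1 (R 4.3.3) was fitted with an intensity trend to 27616 probe sets reaching 100 on 2 or more of the 6 arrays, two-sided, with Benjamini-Hochberg adjustment over all of them. A gene was read from its brightest probe set. A local pooled error test, the one named in the methods, was rebuilt from its description, not run in the authors' software. After adjustment it called 58 probe sets at 3 h and 298 at 8 h. The paper reports more probe sets changed at either time and states no cutoff. The rebuilt test did not reproduce that number, so its counts are not the authors' own results. Same-numbered arrays deviated together (r of 0.26, 0.28 and 0.32 over the pairs of groups), so the number was taken to pair arrays, and a fit with it as a block is given where it changes a call. Members and lists were chosen with earlier results of these data known. Text names all 7 members, list genes that passed or else the 2 largest changes, up to 3 identity genes per list at 100 or more on all arrays, by mean log2 signal, and the 3 genes most like each member. Other list genes, such as CCNE1, SPP1, GPC3, MYCN, OLIG1, OLIG2 and the identity genes near background, were named after their values were seen. Sequences are RefSeq's, and motifs were searched in 35116 promoter windows of 27305 genes. Alternatives were quantile and median scaling, other filters, a floor of 100, a pseudocount of 50, 4-array fits and leaving out arrays.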

Additional observations from a re-analysis of the deposited data

Results flagged for a closer look

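GLI3 205201_at was flagged for a difference between the 2 times of exposure. Both Tg 3 h arrays (699.3 and 627.7) lay above the untreated ones (599.8 and 589.9), as for 14.0% of all tested probe sets. Both Tg 8 h arrays (342.8 and 351.7) lay below the untreated ones, as for 24.5% of all. On the log2 scale, 8 h minus 3 h was -0.93. limma gave this difference an adjusted p of 0.419, and 0.0404 with the replicate block. The 3 h value itself, 0.16 ± 0.23 (SE), did not pass (adjusted p of 1.0 by limma, 0.803 with the block). GLI3 227376_at was below untreated at both times. The difference between times was not particular to GLI3 205201_at, since GLI2 228537_at and 207034_s_at had larger ones, -1.20 and -1.06.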

How the results depend on the processing

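With the replicate number as a block, member probe sets called numbered 4 at 8 h and 2 for 8 h against 3 h (0 each without it), with GLI2 at -1.18 and GLI3 at -1.03 past the threshold at 8 h, while other list genes called numbered 2 at 3 h (0 without it) and 4 at 8 h (1 without it), and all probe sets called 274, 1819 and 678 (15, 182 and 0 without it). No other member call changed under the block. The list call at 8 h, TULP3, went to 0 under median centring, without the intensity trend, and without either Tg 8 h array or untreated replicate 1 (range 0 to 1). All probe sets called at 3 h numbered 8 in 4-array fits, 5 with a floor of 100, 58 with the local pooled error test, 8 with median centring, 24 with no filter, 0 without the trend and 28 with quantile scaling. At 8 h they numbered 94, 107, 298, 47 and 0 in 4-array fits, with the floor, local pooled error, median centring and no trend, and local pooled error called 60 for 8 h against 3 h. With median centring 43 of them were higher and 4 lower, against 142 and 40 as deposited. Leaving out arrays gave 0 to 34 at 3 h and 2 to 203 at 8 h. GLI1 turned to 0.45 at 3 h and 0.03 at 8 h with the floor, and GLI2 at 3 h to -0.24 as the mean of all probe sets and -0.09 with median centring. As the mean of all probe sets, GLI3 was at -0.66 (adjusted p 0.413 by limma) and SUFU at -0.59 at 8 h, and GLI3 at -0.16 at 3 h. Leaving out arrays, GLI1 ran from -2.58 to 0.94 at 3 h and from -0.39 to 0.09 at 8 h, GLI2 from -0.26 to 0.30 at 3 h and from -1.26 to -1.10 at 8 h, GLI3 from -1.07 to -0.99 at 8 h, SMO from -1.46 to -0.58 and PTCH1 from -0.99 to -0.32 at 8 h, PTCH1 from -0.75 to -0.07 at 3 h, and SUFU from -0.46 to 0.80 at 3 h and from -0.65 to 0.17 at 8 h. Median centring moves the median of all probe sets at 3 h to -0.13 and for 8 h against 3 h to 0.13. The cause of these shifts was not tested. With a near-background limit of 200, 14 of 21 member probe sets were below it, and 11 with the receptor percentile. Signals near background limit HHIP, GLI1 and SUFU.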
